A study of Homo sapiens with 12 samples.

Results

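The 10 genes described here belong to the ATF4 arm of the cellular stress response, together with the stress hormone gene GDF15. They were taken by name: ATF4, DDIT3, PHGDH, PSAT1, ASNS, SLC7A11, CHAC1, TRIB3, SESN2 and GDF15, 10 of the 56832 gene names in the count files and 10 of the 14549 genes that could be tested. Their RNA was counted in 12 libraries of MDA-MB-468, a human basal-like breast cancer cell line. One population stably carried the pCDH-TRB vector for thyroid hormone receptor beta (TRB cells) and the other the pCDH-EV vector without it (EV cells), and the labels do not say whether either is a clone. Both populations were starved of hormone for 24 hours in phenol-red-free medium with charcoal-stripped serum and then received the thyroid hormone T3 at 10 nM or its NaOH vehicle for 24 hours, which gave 3 libraries for each of EV vehicle, EV T3, TRB vehicle and TRB T3. Starvation was common to all 4 groups, so no library shows the cells in full serum. With 1 population per vector, a difference between TRB and EV cells cannot be told apart from a difference between those populations.

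ATF4 is a transcription factor whose protein is made when phosphorylation of eIF2alpha slows general translation, so its messenger RNA level is known to be a poor guide to its activity. The eIF2alpha kinases respond to amino acid shortage, endoplasmic reticulum stress, viral RNA and heme shortage. Together with C/EBP partners the protein is known to switch on genes for amino acid synthesis, amino acid uptake, cystine import and tRNA charging, and the gene of the serine synthesis enzyme PHGDH is amplified in some breast cancers.

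ATF4 and C/EBP proteins are known to bind the C/EBP-ATF response element. The element was searched for as TGATGNAAN on both strands in the 250 bases before the RefSeq transcription starts (build GRCh38.p14), which covered 9 of the 10 genes in 14 windows; SLC7A11 had no entry. Among these, ASNS and CHAC1 had a window with a match, as had 3.87% of the 27305 genes in the RefSeq table (3.13% of its 35116 windows). Both matches are shown with 10 flanking bases on each side, 5′ to 3′ on the strand of the gene and with the match in capitals, because these are the genes of the set with a match. Annotated exons cover all 250 bases of the CHAC1 window, which lies downstream of the GENCODE start of that gene, and 134 bases of the ASNS window.
ASNS, chr7:97872458-97872486, minus strand: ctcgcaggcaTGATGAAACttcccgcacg
CHAC1, chr15:40953251-40953279, plus strand: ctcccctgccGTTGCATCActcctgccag
Counted from a start, the ASNS match lay at -68 to -60, and the CHAC1 match, which reads as the motif on the opposite strand, at -210 to -202. PSAT1, the gene of the set with the most CCAAT boxes (CCAAT on either strand) in a window free of annotated exons, is shown as an example of a start region without the element, with the boxes in capitals.
PSAT1, chr9:78296875-78297124, plus strand: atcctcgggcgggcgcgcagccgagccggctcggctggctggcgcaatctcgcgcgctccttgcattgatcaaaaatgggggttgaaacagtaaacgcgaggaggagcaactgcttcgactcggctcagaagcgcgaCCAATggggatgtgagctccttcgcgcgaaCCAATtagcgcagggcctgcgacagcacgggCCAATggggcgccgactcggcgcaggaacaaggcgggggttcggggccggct
CCAAT was present for 37% of all genes and for 6 of the 9 (CHAC1, DDIT3, GDF15, PHGDH, PSAT1 and SESN2). The thyroid hormone receptor half-site AGGTCA was found, on either strand, in a second window of ASNS alone, and in 12.1% of all windows, and its direct repeat with a spacer of 4 bases (DR4) was in 0 of the 14 windows and in 0.0142% of all. These matches describe letters and not bound sites.

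Counts assigned to genes came to 4241863 to 8904361 per vehicle library and 10323437 to 11955825 per T3 library, so T3 and depth rose together. The share of counts on the 2 mitochondrial ribosomal RNA genes was 0.326% to 2.68% with vehicle and 0.0502% to 0.09% with T3, and its part in the T3 results was not tested. EV vehicle replicate 1, with the fewest counts and the highest such share, stood apart on the third principal component of log2 CPM (score -30.65, the others -2.63 to 8.58), and EV vehicle replicate 2 on the fourth (-24.34, the others -2.98 to 8.2). Without either, 4 of the 10 genes in place of 5 passed between TRB and EV cells with vehicle, and the gene lost was CHAC1. The same held without EV vehicle replicate 3. Of all genes, 1750 passed there without replicate 1 and 1685 without replicate 2, in place of 2220. For T3 in EV cells 0 of the 10 passed as before, beside 396 and 615 of all genes in place of 660. For the difference in response 2 of the 10 passed as before, beside 3110 and 3109 of all genes in place of 3470. THRB stood at 43.4 ± 0.824 and 38.5 ± 1.23 normalized counts (CPM, with library sizes scaled by TMM factors) in EV vehicle and EV T3 libraries, and at 140 ± 4.15 and 329 ± 16.7 CPM in TRB vehicle and TRB T3 libraries (SD, n = 3). The T3 target KLF9 rose in both populations, with log2 fold changes of 3.45 in TRB cells and 2.13 in EV cells. The line's markers EGFR (4225 to 5664 CPM) and EPCAM (301 to 379 CPM) were present and PGR had 0 counts, while ESR1 stood at 5.22 to 10.8 CPM. Of the fibroblast genes COL1A1 was present in every library (14.6 to 21.1 CPM) and COL1A2 and DCN had 0 counts, and the leukocyte genes PTPRC and CD3E reached at most 0.498 CPM; CD14 is described with the other markers in the closing section. Whether the libraries of a group stem from separate cultures is not stated, and a p-value here reflects the spread among libraries, which may be technical.

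Per kilobase of the longest principal transcript, ATF4 was the highest at 261 CPM per kilobase over the 12 libraries (range 245 to 280), followed by PHGDH at 129 (111 to 144). TRIB3 at 64.2 (45.1 to 75.5) and PSAT1 at 59.3 (49 to 71.2) overlapped in range. DDIT3 at 5.85, CHAC1 at 5.09 and SESN2 at 4.85 CPM per kilobase could not be ordered beyond their spread, and SLC7A11 stood below them at 2.18. ASNS (0.936) and GDF15 (0.768) were the lowest and overlapped as well. Dividing by all annotated exon bases instead put PSAT1 at rank 2, TRIB3 at rank 3 and PHGDH at rank 4, so the order among those 3 depends on the transcript taken.

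The 10 genes split in their response. T3 raised PSAT1 and lowered PHGDH and TRIB3 in TRB cells, and none of the 10 passed the test for T3 in EV cells. TRB cells had lower levels of PSAT1, SLC7A11, CHAC1, TRIB3 and GDF15 than EV cells with vehicle, and with T3 also of PHGDH and SESN2. Of these, GDF15 could be tested only through the EV libraries, where it was higher. The mRNA of ATF4 itself, like those of DDIT3 and ASNS, passed in no comparison.

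A gene passed where its Benjamini-Hochberg adjusted p in edgeR's quasi-likelihood test was below 0.05 over all 14549 genes. For T3 in TRB cells 3 of the 10 passed, 1 higher and 2 lower, where 44.4% of all genes tested did (22.4% higher and 21.9% lower). For T3 in EV cells 0 of 10 passed with edgeR and 0 with DESeq2, where 4.54% of all genes did with edgeR (2.84% higher and 1.7% lower). ASNS, PSAT1 and TRIB3 had an unadjusted edgeR p below 0.05 there. The share of all genes at that unadjusted p was not counted, so these 3 say nothing about the set. Between TRB and EV cells with vehicle 5 of the 10 were lower and none higher, beside 7.4% of all genes lower, 7.86% higher and 15.3% called in either direction. With T3 7 of the 10 were lower and none higher, beside 19.7% lower, 21% higher and 40.7% in either direction. The change with T3 differed between TRB and EV cells for 2 of the 10, PHGDH and TRIB3, both toward lower values, beside 11.6% of all genes in that direction and 23.9% in either. CPM did not overlap between the groups for 4 of the 10 with T3 in TRB cells (51.9% of all genes), for 2 with T3 in EV cells (20.5%), for 6 between TRB and EV cells with vehicle (30.1%) and for 7 with T3 (47.6%).

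GDF15 reached the low-count filter only in the EV libraries, so it could be tested only through the population in which it was higher, and counts that include it support nothing about the set. Among the 9 genes that reached the filter in all 12 libraries, 4 were lower with vehicle and 6 with T3, and the median log2 difference between TRB and EV cells was -0.21 with vehicle and -0.24 with T3, against -0.000498 and 0.00195 over all genes tested. For T3 in TRB cells the median of these 9 was -0.01 and for T3 in EV cells 0.06. The comparisons share libraries (the TRB vehicle libraries enter both T3 in TRB cells and TRB against EV with vehicle), so their values are given side by side and not as support for each other. In whole cultures, fewer cells with a transcript and less transcript per cell cannot be told apart.

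**Figure D1:**
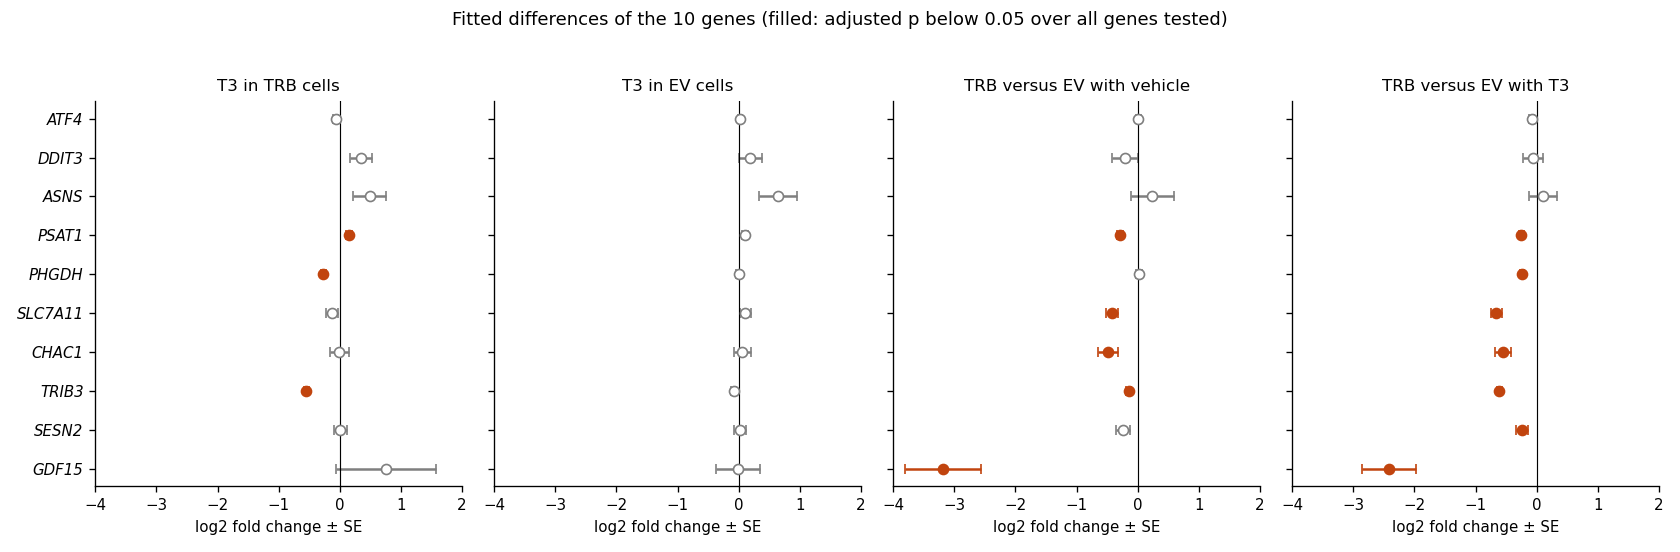
Fitted log2 fold changes (x axis) with their SE for the 10 genes (y axis) in 4 comparisons, filled where the adjusted p was below 0.05. PHGDH and TRIB3 lie left of 0 for T3 in TRB cells, no gene is filled for T3 in EV cells, and GDF15 lies farthest left between TRB and EV cells, at -3.18 with vehicle and -2.42 with T3.

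ATF4 (chromosome 22, 39519695 to 39522685, hg38) showed no mRNA change that passed. The TRB vehicle libraries gave 539, 543 and 519 CPM and the TRB T3 libraries 506, 520 and 495 CPM. The EV vehicle libraries gave 526, 543 and 518 CPM and the EV T3 libraries 514, 566 and 531 CPM. The ranges overlapped in the comparisons of T3 with vehicle in both populations. The fitted log2 fold change with T3 was -0.07 (SE 0.0392, adjusted p = 0.119) in TRB cells and 0.02 (SE 0.0397, adjusted p = 0.85) in EV cells. TRB and EV cells differed by 0.01 with vehicle (SE 0.0402, adjusted p = 0.879) and by -0.08 with T3 (SE 0.0388, adjusted p = 0.0778). The side of the threshold moved with the processing: with the GC trend removed, ATF4 passed for T3 in TRB cells (-0.12, adjusted p = 0.00354). Between TRB and EV cells with T3 it passed with the GC trend removed (adjusted p = 0.0144), with protein-coding genes only (0.0449) and without EV T3 replicate 1 (0.0124), at log2 differences of -0.12 to -0.08. The genes with the most similar profile over the 12 libraries, by root mean square difference of centred log2 CPM, were TRIM28 (0.0269), HNRNPA0 (0.0273) and RPL37A (0.0302), where the median over all genes was 0.167. Of the other 9 genes PHGDH was the closest to ATF4, at 0.0882 but only rank 1989 among all genes tested, and GDF15 the farthest, at 0.816. ATF4 varied little over the libraries, so a small distance marks a gene that also varied little.

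DDIT3 (chromosome 12, 57516588 to 57521737) encodes CHOP, the transcription factor that follows ATF4 in prolonged endoplasmic reticulum stress. It passed in no comparison. CPM were 4.47, 5.60 and 3.69 in TRB vehicle, 6.51, 4.76 and 6.29 in TRB T3, 5.29, 5.95 and 4.97 in EV vehicle and 6.07, 7.05 and 5.31 in EV T3 libraries. The groups overlapped in all 4 comparisons, with T3 replicate 2 the lowest and vehicle replicate 2 the highest of their groups in TRB cells. T3 gave a log2 fold change of 0.34 in TRB cells (SE 0.181, adjusted p = 0.129) and 0.19 in EV cells (SE 0.187, adjusted p = 0.693). Leaving out either of those 2 libraries brought the TRB value past the threshold, at 0.52 without TRB vehicle replicate 2 (adjusted p = 0.0491) and 0.46 without TRB T3 replicate 2 (adjusted p = 0.0474). DDIT3 shares 27.2% of its exon bases with MARS on the opposite strand, and the strand setting of the counting is unknown here.

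**Figure D2:**
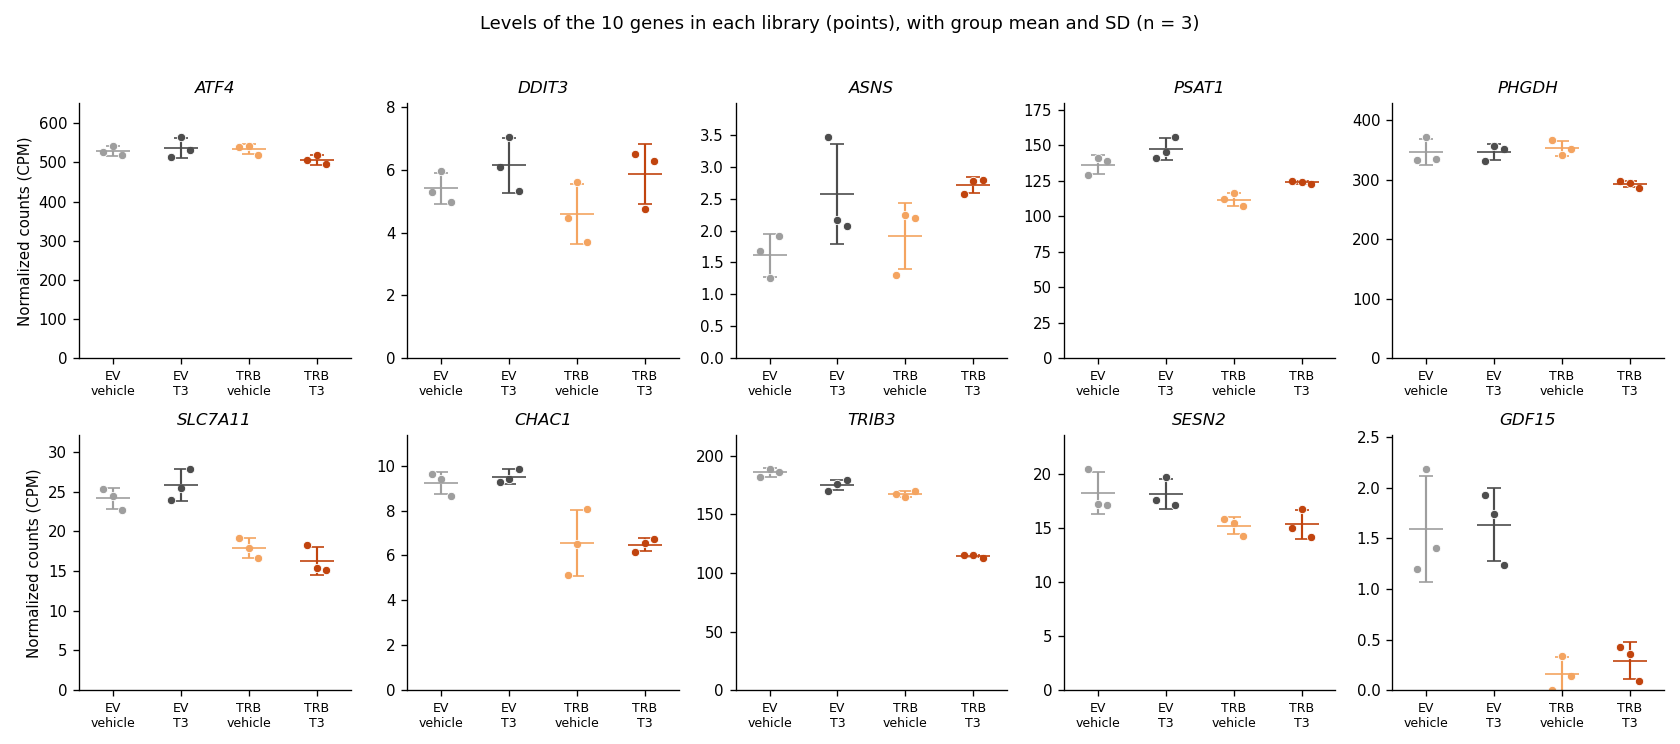
CPM (y axes, from 0) of the 10 genes in each library, 1 panel per gene and 3 points per group, with horizontal bars for the group mean and whiskers for the SD. TRIB3 and PHGDH are lower in the 3 TRB T3 libraries than in each of the other 9, SLC7A11 and GDF15 are lower in all 6 TRB libraries than in all 6 EV libraries, and ATF4 is level.

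In TRB cells T3 lowered PHGDH and raised PSAT1, the enzymes of the first steps of serine synthesis, and neither passed in EV cells. PHGDH (chromosome 1, 119648411 to 119744226), which oxidises 3-phosphoglycerate in the first step of serine synthesis, gave 366, 341 and 351 CPM in TRB vehicle and 297, 294 and 286 CPM in TRB T3 libraries. In EV cells it gave 332, 372 and 335 CPM with vehicle and 331, 357 and 351 CPM with T3. Every TRB T3 library was below each of the other 9. The log2 fold change with T3 in TRB cells was -0.27 (SE 0.0404, adjusted p = 5.08e-08). In EV cells the means were the same, 346 ± 22.4 and 346 ± 13.7 CPM (SD, n = 3, adjusted p = 0.992), and the difference between the 2 responses passed (-0.27, SE 0.0575, adjusted p = 0.000175). With vehicle TRB and EV cells stood at 352 ± 12.9 and 346 ± 22.4 CPM (adjusted p = 0.789), and with T3 TRB cells were lower (log2 difference -0.24, SE 0.0396, adjusted p = 3.68e-07).

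PSAT1 (chromosome 9, 78297143 to 78330093), whose start region is printed above, encodes the aminotransferase of the next step. It gave 112, 116 and 107 CPM in TRB vehicle and 125, 124 and 123 CPM in TRB T3 libraries. In EV cells it gave 129, 141 and 139 CPM with vehicle and 141, 145 and 156 CPM with T3. All 6 TRB libraries were thus below all 6 EV libraries, while the TRB T3 libraries stood above the TRB vehicle ones. The rise with T3 in TRB cells was 0.15 (log2, SE 0.0469, adjusted p = 0.00737). In EV cells the fitted value was 0.10 (SE 0.0469, adjusted p = 0.247), and the 2 responses differed by 0.05 (SE 0.0664, adjusted p = 0.692), so a response particular to TRB cells was not shown. The lower level in TRB cells was -0.29 with vehicle (SE 0.0503, adjusted p = 9.5e-06) and -0.25 with T3 (SE 0.0433, adjusted p = 2.61e-06). PHGDH kept its calls under each alternative run, while the rise of PSAT1 with T3 missed the threshold with all libraries thinned to 4241863 counts (0.11, adjusted p = 0.14) and without TRB vehicle replicate 3 (0.12, adjusted p = 0.0589).

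The ratio of PHGDH to PSAT1 CPM was 3.16 ± 0.195 in TRB vehicle libraries (range 2.93 to 3.27) and 2.35 ± 0.0273 in TRB T3 libraries (2.32 to 2.38; SD, n = 3). It was 2.54 ± 0.123 in EV vehicle and 2.36 ± 0.109 in EV T3 libraries. The TRB vehicle libraries stood above the other 9, and the ratio is a description of the 2 genes and carries no test of its own.

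Around these enzymes, PSPH, which completes serine synthesis, stayed near 201 ± 6.19, 209 ± 11.1, 206 ± 1.98 and 205 ± 0.562 CPM in EV vehicle, EV T3, TRB vehicle and TRB T3 libraries and passed in no comparison. SHMT2, the mitochondrial enzyme that takes serine to glycine, was lower in TRB cells, with log2 differences of -0.19 with vehicle (adjusted p = 0.00252) and -0.20 with T3 (adjusted p = 6.71e-05). These 2 genes were named after their values were seen. MTHFD2, the mitochondrial folate enzyme and a known ATF4 target, went the other way from PHGDH: it gave 155, 166 and 165 CPM in TRB vehicle and 411, 399 and 397 CPM in TRB T3 libraries, a rise of 1.31 (log2, SE 0.0426, adjusted p = 4.17e-37). For MTHFD2 in EV cells, vehicle libraries averaged 191 ± 1.09 CPM and T3 libraries 206 ± 17.4 CPM (adjusted p = 0.178). SHMT1, the cytosolic form, fell with T3 in TRB cells (-0.58), as did MTHFD1L (-0.28). Of the 12 serine, glycine and one-carbon genes tested outside the set, 3 rose and 3 fell with T3 in TRB cells and none passed in EV cells, while 1 was higher and 5 were lower in TRB than in EV cells with vehicle. Of all genes tested, 22.4% rose and 21.9% fell with T3 in TRB cells and 4.54% passed in EV cells. With vehicle 7.86% of all genes were higher and 7.4% lower in TRB than in EV cells.

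**Figure D3:**
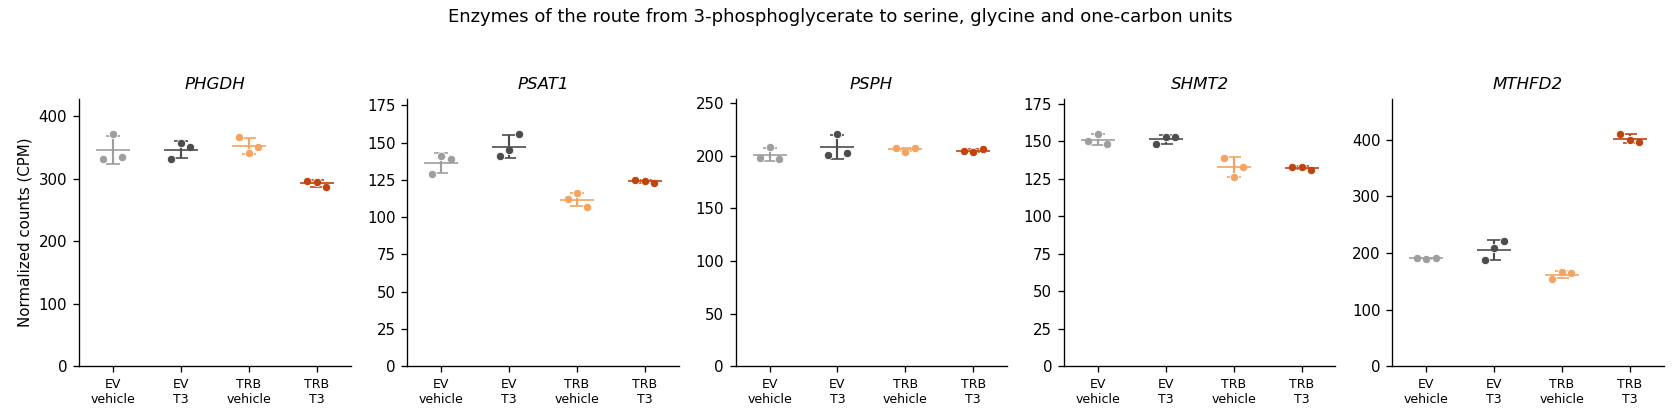
CPM (y axes, from 0) of PHGDH, PSAT1, PSPH, SHMT2 and MTHFD2 in the 12 libraries, with the group mean and SD (n = 3). In TRB T3 libraries PHGDH is at 286 to 297 CPM, its lowest, while MTHFD2 is at 397 to 411 CPM, its highest, and PSPH is level.

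ASNS (chromosome 7, 97852118 to 97872542), the asparagine synthetase that carries the response element printed above, was counted at a low level. CPM were 1.31, 2.24 and 2.19 in TRB vehicle, 2.57, 2.78 and 2.79 in TRB T3, 1.68, 1.25 and 1.91 in EV vehicle and 3.47, 2.17 and 2.07 in EV T3 libraries. The T3 libraries lay above the vehicle libraries in both populations without overlap. The fitted values did not pass: 0.49 in TRB cells (SE 0.27, adjusted p = 0.136) and 0.64 in EV cells (SE 0.309, adjusted p = 0.289). TRB and EV cells differed by 0.24 with vehicle (adjusted p = 0.725) and 0.10 with T3 (adjusted p = 0.78). Only 255 counts over the 12 libraries fell on ASNS. It shares 44.6% of its exon bases with the same-strand locus AC079781.5, which is listed with 0 counts, and how the shared bases entered the ASNS counts was not tested.

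SLC7A11 (chromosome 4, 138164097 to 138242349) encodes the cystine-glutamate exchanger xCT, which supplies cysteine for glutathione. It gave 19.1, 17.9 and 16.7 CPM in TRB vehicle and 18.3, 15.4 and 15.1 CPM in TRB T3 libraries. EV cells gave 25.3, 24.4 and 22.7 CPM with vehicle and 23.9, 25.5 and 27.9 CPM with T3. Each TRB library was below every EV library. TRB cells were lower, with log2 differences of -0.42 with vehicle (SE 0.105, adjusted p = 0.00257) and -0.66 with T3 (SE 0.0864, adjusted p = 1.17e-09). T3 itself gave -0.13 in TRB cells (SE 0.0999, adjusted p = 0.288) and 0.11 in EV cells (SE 0.0925, adjusted p = 0.605), and the 2 responses differed by -0.25 (SE 0.136, adjusted p = 0.199). SLC7A11 shares 8.97% of its exon bases with SLC7A11-AS1 on the opposite strand.

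SLC3A2, the heavy chain that xCT pairs with, was lower in TRB cells too, at 139 ± 7.45 against 191 ± 8.61 CPM with vehicle (log2 difference -0.45, adjusted p = 6.55e-12) and 139 ± 5.41 against 197 ± 2.08 CPM with T3 (-0.50, adjusted p = 6.07e-17). SLC7A5, which pairs with the same chain to carry large neutral amino acids, was lower too, with log2 differences of -0.59 with vehicle (adjusted p = 5.25e-18) and -0.83 with T3 (adjusted p = 5.92e-29). Both were named after their values were seen.

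CHAC1 (chromosome 15, 40952962 to 40956519), a glutathione-degrading enzyme, gave 5.13, 6.50 and 8.06 CPM in TRB vehicle and 6.17, 6.56 and 6.72 CPM in TRB T3 libraries. EV cells gave 9.63, 9.39 and 8.66 CPM with vehicle and 9.25, 9.40 and 9.87 CPM with T3. Again no TRB library reached an EV library, though TRB vehicle replicate 3 came near. The difference between TRB and EV cells was -0.48 with vehicle (SE 0.165, adjusted p = 0.035) and -0.55 with T3 (SE 0.133, adjusted p = 0.000465). The vehicle call is the least secure of the 5: it was lost with DESeq2 (adjusted p = 0.137), without the low-count filter (0.0664), with thinned counts (0.0668) and without any 1 of 5 vehicle libraries (up to 0.214 without TRB vehicle replicate 1). With thinned counts the T3 call was lost as well (-0.40, adjusted p = 0.127). T3 changed CHAC1 detectably in neither population (-0.01, adjusted p = 0.953 in TRB cells and 0.06, adjusted p = 0.899 in EV cells).

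TRIB3 (chromosome 20, 362835 to 397559), a pseudokinase that ATF4 and CHOP induce and that feeds back on both, had the largest fall with T3 among the 10. It gave 167, 165 and 170 CPM in TRB vehicle and 115, 115 and 113 CPM in TRB T3 libraries. EV cells gave 182, 189 and 186 CPM with vehicle and 170, 176 and 179 CPM with T3. The TRB T3 libraries stood apart from the other 9, the lowest of which was at 165 CPM. The log2 fold change with T3 was -0.55 in TRB cells (SE 0.0427, adjusted p = 3.51e-18) and -0.08 in EV cells (SE 0.0419, adjusted p = 0.304), and the 2 responses differed by -0.46 (SE 0.0597, adjusted p = 2.42e-09). TRB cells were lower than EV cells, with log2 differences of -0.15 with vehicle (SE 0.0436, adjusted p = 0.00958) and -0.61 with T3 (SE 0.0409, adjusted p = 2.37e-21). With the GC trend removed TRIB3 also passed for T3 in EV cells (-0.15, adjusted p = 0.0147), and with thinned counts the vehicle difference was lost (-0.13, adjusted p = 0.0977).

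SESN2 (chromosome 1, 28259527 to 28282491), a leucine sensor that restrains mTORC1, gave 15.8, 15.5 and 14.3 CPM in TRB vehicle and 15, 16.8 and 14.2 CPM in TRB T3 libraries. EV cells gave 20.5, 17.2 and 17.1 CPM with vehicle and 17.6, 19.7 and 17.1 CPM with T3. The TRB libraries were below the EV libraries by a narrow margin, and T3 and vehicle libraries overlapped. The log2 difference of -0.24 between TRB and EV cells passed with T3 (SE 0.0943, adjusted p = 0.0316) and not with vehicle (SE 0.115, adjusted p = 0.174). The T3 call was lost with DESeq2 (adjusted p = 0.156), with thinned counts (0.516) and without EV T3 replicate 2 (0.196), TRB T3 replicate 1 (0.0781) or TRB T3 replicate 3 (0.128). T3 gave 0.01 in TRB cells (adjusted p = 0.945) and 0.02 in EV cells (adjusted p = 0.963).

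GDF15 (chromosome 19, 18374731 to 18389176), a secreted TGF-beta family member that stress raises and that signals through GFRAL in the hindbrain, had the widest gap between the 2 populations. The EV vehicle libraries held 5, 14 and 11 counts and the EV T3 libraries 20, 20 and 15. The TRB vehicle libraries held 0, 3 and 1 counts and the TRB T3 libraries 5, 4 and 1. In CPM this was 1.60 ± 0.523 and 1.64 ± 0.353 in EV vehicle and EV T3 libraries and 0.158 ± 0.169 and 0.292 ± 0.18 in TRB vehicle and TRB T3 libraries (SD, n = 3), so every TRB library was below every EV library.

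Summed over libraries and scaled for depth, GDF15 was 9.73 times higher in EV than in TRB cells with vehicle (95% exact interval 3.43 to 38) and 5.55 times higher with T3 (2.8 to 12.2), intervals that cover counting error only. The fitted log2 differences of -3.18 with vehicle (SE 0.621, adjusted p = 8.39e-05) and -2.42 with T3 (SE 0.445, adjusted p = 5.65e-06) rest on 4 and 10 counts in the TRB libraries. Because GDF15 reached the low-count filter only in the EV libraries, it was testable only through the population where it was higher. Without TRB vehicle replicate 2, which held 3 of the 4 counts, the vehicle value was -4.35, and without TRB vehicle replicate 1 it was -2.67. T3 changed GDF15 detectably in neither population: the ratio of vehicle to T3 was 0.574 in TRB cells (0.131 to 1.99) and 1.01 in EV cells (0.622 to 1.6). GFRAL had 0 counts in the 12 libraries. The profiles nearest to GDF15 were those of CYP1A1 (root mean square difference 0.31), OASL (0.336) and IFIT1 (0.34), against a median of 0.849. They were chosen for a profile like that of GDF15 over the same libraries, so their lower level in TRB than in EV cells with vehicle (log2 differences -1.93, -1.26 and -1.82) is a description of that choice. Of the other 9 genes SLC7A11 (rank 125) and CHAC1 (rank 132) came closest.

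Upstream of ATF4, the mRNAs of the 4 eIF2alpha kinases had group means from 42.3 to 332 CPM. EIF2AK1 (HRI) and EIF2AK3 (PERK) did not pass for T3 against vehicle in either population. With T3, EIF2AK3 was higher in TRB than in EV cells (0.18, adjusted p = 0.015). EIF2AK4 (GCN2) fell slightly with T3 in TRB cells (-0.14, adjusted p = 0.033). Its value in EV cells was -0.17 (adjusted p = 0.0952), and the 2 responses differed by 0.02 (adjusted p = 0.891). EIF2AK2 (PKR) was lower in TRB than in EV cells (-0.31 with vehicle and -0.34 with T3, adjusted p = 2.52e-08 and 1.27e-11). PPP1R15A (GADD34), the stress-induced phosphatase subunit that reverses eIF2alpha phosphorylation, fell with T3 in TRB cells, from 33, 31.2 and 31.3 CPM to 25.4, 24.5 and 24.8 CPM (log2 fold change -0.35, adjusted p = 9.55e-05). The value in EV cells was -0.06 (adjusted p = 0.791), and the 2 responses differed (-0.30, adjusted p = 0.0324). GCN1, the GCN2 activator, and NCK1, an adaptor of the phosphatase, rose with T3 in TRB cells (0.36 and 0.51). Of the 16 genes of this list 5 rose and 2 fell with T3 in TRB cells, with a median of 0.07, beside 22.4% and 21.9% of all genes.

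Among the bZIP partners, ATF3, itself a stress-induced factor, fell with T3 in TRB cells from 12 ± 0.238 to 7.5 ± 0.364 CPM (log2 fold change -0.68, adjusted p = 7.87e-06), and TRB cells were lower than EV cells with vehicle (-0.49, adjusted p = 0.00259) and with T3 (-1.05, adjusted p = 1.95e-12). ATF5 passed in no comparison. CEBPB, a partner of ATF4, rose with T3 in TRB cells (0.44, adjusted p = 1.05e-14) and in EV cells (0.16, adjusted p = 0.0219), and the 2 responses differed (0.28, adjusted p = 0.000158). CREB3L1 rose 7.53-fold in TRB cells, whereas CREB3L2 and JUN fell (-0.51 and -0.59). In EV cells CREB3L2 fell too (-0.17, adjusted p = 0.0164), while CREB3L1 (0.31, adjusted p = 0.173) and JUN (-0.01, adjusted p = 0.948) did not pass. Of 20 such genes 5 rose and 6 fell with T3 in TRB cells, beside 22.4% and 21.9% of all genes.

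The aminoacyl-tRNA synthetases, which charge tRNAs with amino acids, mostly rose. Of the 20 synthetases and the tRNA exporter XPOT, 12 rose and 1 fell with T3 in TRB cells (median 0.11, against -0.00168 over all genes), and 0 passed in EV cells with edgeR (median 0.02), although 1 did without the low-count filter. With vehicle 11 of the 21 were lower in TRB than in EV cells and none higher (median -0.14). Of all genes tested, 22.4% rose and 21.9% fell with T3 in TRB cells, and 7.4% were lower in TRB cells with vehicle. Both comparisons use the same TRB vehicle libraries. The difference between the 2 responses to T3 passed for 6 of the 21, with 6 higher and 0 lower, beside 12.3% and 11.6% of all genes. CARS, the cysteinyl-tRNA synthetase, was named for the smallest p of the list with T3 in TRB cells. It gave 66.9, 69.1 and 68.4 CPM in TRB vehicle and 120, 122 and 119 CPM in TRB T3 libraries, a rise of 0.82 (adjusted p = 2.48e-22). EV vehicle libraries stood at 83.6 ± 3.3 CPM. HARS rose by 0.37 and YARS by 0.27. With T3, 4 were higher and 7 lower in TRB than in EV cells, and 1 and 6 without the low-count filter.

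Amino acid transporters divided. SLC1A4, the alanine, serine and cysteine carrier, fell with T3 in TRB cells from 49.7 ± 1.86 to 24.1 ± 0.797 CPM (log2 fold change -1.04, adjusted p = 1.94e-21), and the glutamate carrier SLC1A3 fell as well (-0.59, adjusted p = 1.14e-19). The glutamine carrier SLC38A2 rose by 0.43. Of 17 transporter genes 7 rose and 4 fell with T3 in TRB cells, beside 22.4% and 21.9% of all genes. With vehicle 1 was higher and 5 lower in TRB than in EV cells (median -0.20), beside 7.86% and 7.4% of all genes.

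Among other amino acid enzymes GLUL rose (0.70) and PCK2 fell (-0.31) with T3 in TRB cells, with 3 higher and 2 lower of 11. In glutathione metabolism TXNRD1 rose (0.71) while GCLM (-0.36) and NQO1 (-0.23) fell, with 2 higher and 5 lower of 12. Beside the counts of both lists, 22.4% of all genes were higher and 21.9% lower.

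Further reported targets of ATF4 or CHOP changed in both directions. VEGFA rose from 107 ± 7.49 to 387 ± 23.1 CPM with T3 in TRB cells (log2 fold change 1.86), and SESN3 (-1.35) and CDKN1A (-1.21) fell. In EV cells SESN3 (-0.22, adjusted p = 0.0462) and CDKN1A (-0.57, adjusted p = 0.000183) fell too, while VEGFA did not pass (0.10, adjusted p = 0.344). STC2, named after its values were seen, was lower in TRB than in EV cells with vehicle, 9.32 ± 0.597 against 26.4 ± 1.6 CPM (-1.50, adjusted p = 4.52e-17), and rose with T3 in TRB cells (0.82, adjusted p = 7.34e-09). Of 26 tested, 11 rose and 8 fell with T3 in TRB cells, beside 22.4% and 21.9% of all genes. With vehicle 5 were higher and 6 lower in TRB than in EV cells, beside 7.86% and 7.4% of all genes.

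Genes of the other arms of the unfolded protein response changed in both directions, with HERPUD1 the furthest of those named. HSPA5 (BiP), the chaperone that marks endoplasmic reticulum stress, went from 350 ± 11 to 393 ± 13.1 CPM with T3 in TRB cells (0.17, adjusted p = 0.000245), and stood at 395 ± 8.89 CPM in EV vehicle libraries. XBP1 was higher in TRB than in EV cells with vehicle (0.49, adjusted p = 2.87e-16) and fell with T3 in TRB cells (-0.21, adjusted p = 4.57e-06). HERPUD1 and SYVN1 rose with T3 in TRB cells (0.79 and 0.26) and SEC24D fell (-0.44). Of 24 genes of this list 9 rose and 5 fell with T3 in TRB cells, beside 22.4% and 21.9% of all genes. With vehicle 1 was higher and 4 were lower in TRB than in EV cells, beside 7.86% and 7.4% of all genes.

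**Figure D4:**
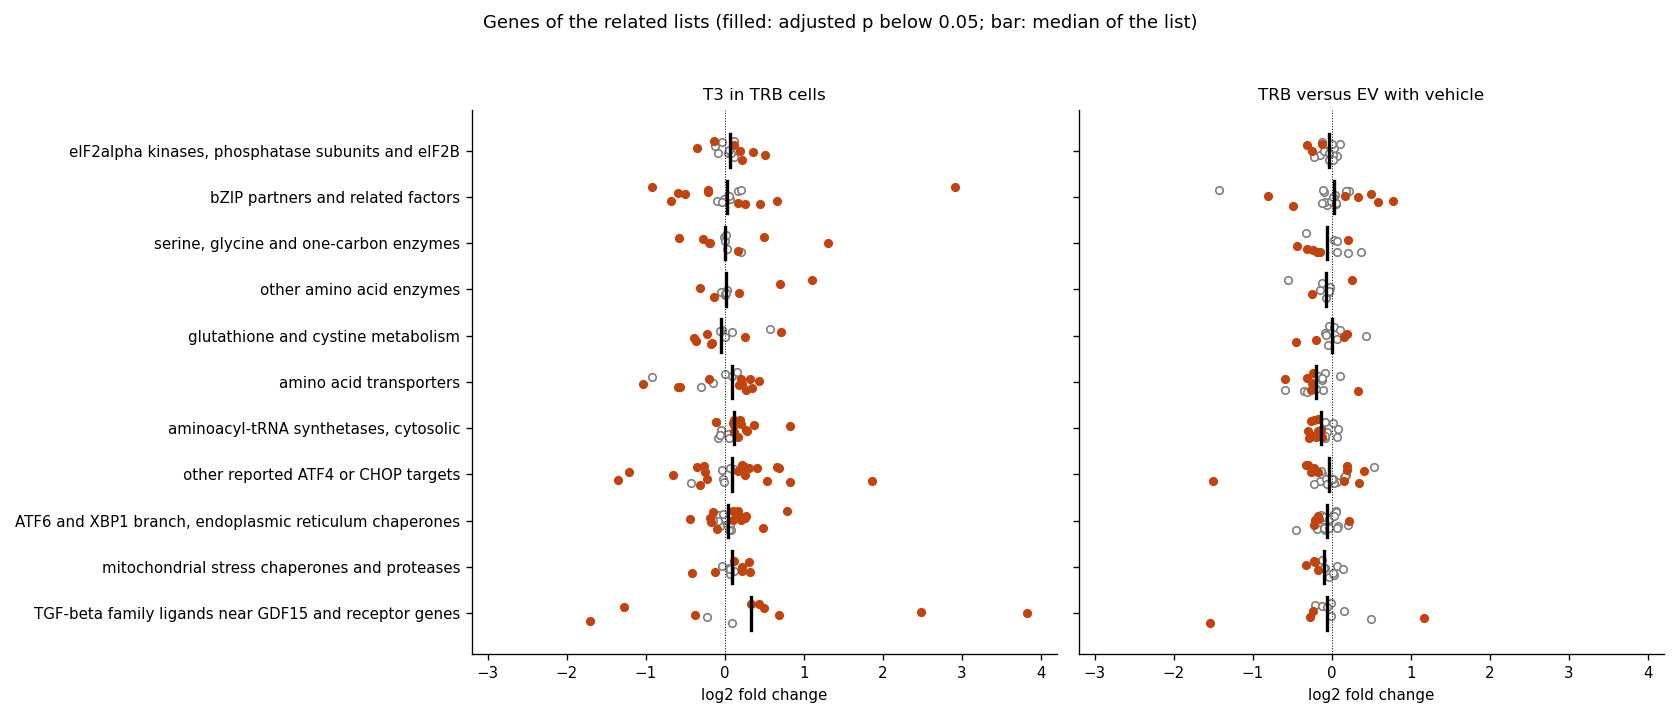
Log2 fold changes (x axes) of the genes in 11 related lists (rows), for T3 in TRB cells (left) and TRB against EV cells with vehicle (right), filled where the adjusted p was below 0.05, with a bar at the median of each list. The tRNA synthetases lie mostly right of 0 on the left panel (12 of 21 higher, median 0.11) and left of 0 on the right panel (11 of 21 lower, median -0.14), while most other lists straddle 0. The median lay farther from 0 for the TGF-beta family and receptor genes on the left (0.33) and for the amino acid transporters on the right (-0.20). Both panels use the same TRB vehicle libraries. Of all genes tested, 22.4% were higher on the left and 7.4% lower on the right.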

How the data were processed

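Messenger RNA was measured by sequencing in 12 MDA-MB-468 libraries, 3 per group. Per the labels' protocols, RNA was extracted with Trizol and the NEBNext Ultra II RNA kit was used; how ribosomal RNA was removed and the strand setting of counting are not given in the sources used here. The submitters' processing notes name build hg38 and, without roles, DESeq2, HTSeq 0.10, STAR 2.7 and CASAVA 1.7. The values used are the whole-number counts per gene that the authors deposited for each library. A normalized table of the series was not used. Lines naming no gene, 31.87% to 39.24% of each library's counts, were left out.

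Counts were filtered with filterByExpr (a minimum of 10 counts and 15 over all libraries) and scaled by TMM, and 4 group means were fitted with robust dispersions in edgeR 4.0.16 (limma 3.58.1, R 4.3.3). The quasi-likelihood test had 8 residual degrees of freedom, and p was adjusted by Benjamini-Hochberg over 14549 genes, with 0.05 as the threshold. Standard errors were obtained by dividing the fitted log2 value by the root of F. The fit was tested on simulated counts. Coordinates come from GENCODE v29, matched by symbol for 29681 of 56832 names and through an older symbol for 887. Promoter sequences are RefSeq's. Ratios of GDF15 counts carry exact binomial intervals at 95%, which cover counting error only.

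The 10 genes and the 13 related lists were chosen with earlier results of these data known, so a list's count is not independent evidence. Named were the 10 genes, the 3 smallest p of each list for T3 in TRB cells, 14 further genes whatever their values, and the 3 nearest profiles of ATF4 and of GDF15. PSPH, SHMT2, SLC3A2, SLC7A5 and STC2 were added after their values were seen. Of what that rule selects, 1 list and several genes are not reported here. Alternatives were DESeq2 1.42.0, RLE factors, no low-count filter, CPM above 1 in 3 libraries, only the groups compared, the replicate number as a block, counts thinned to 4241863, protein-coding genes only (12396), the GC trend removed (12934 genes) and each library left out in turn.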

Additional observations from a re-analysis of the deposited data

Results flagged for a closer look

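The response to T3 differed between TRB and EV cells, by the interaction term of the edgeR fit at adjusted p below 0.05, for 2 of the 10 genes and for 42 other named genes. Values are the log2 fold change with T3 in TRB cells minus that in EV cells. PHGDH (-0.27) and TRIB3 (-0.46) fell in TRB cells relative to EV cells, and both passed under each alternative run. The related genes, most of which were named for a small p with T3 in TRB cells, were so chosen in part by the same libraries. Among the kinase and phosphatase genes the values were those of GCN1 (0.32), NCK1 (0.50) and PPP1R15A (-0.30). For the bZIP factors they were CREB3L1 (2.60), CREB3L2 (-0.34), JUN (-0.58), ATF3 (-0.56), CEBPB (0.28) and XBP1 (-0.24). Among the one-carbon enzymes the values were those of MTHFD2 (1.20), SHMT1 (-0.50) and MTHFD1L (-0.33). For the other amino acid enzymes they were GLUL (0.62) and PCK2 (-0.33). Among the glutathione and redox genes the values were those of TXNRD1 (0.59), GCLM (-0.38) and NQO1 (-0.26). For the amino acid transporters they were SLC1A4 (-0.95), SLC1A3 (-0.58), SLC38A2 (0.34) and SLC7A5 (-0.24). Among the tRNA synthetases the values were those of CARS (0.77), HARS (0.28) and YARS (0.24). For the other reported ATF4 or CHOP targets they were VEGFA (1.76), SESN3 (-1.13), CDKN1A (-0.65) and STC2 (0.71). Among the endoplasmic reticulum genes the values were those of HERPUD1 (0.68), SEC24D (-0.27) and SYVN1 (0.22). For the mitochondrial genes they were DNAJA3 (0.29), AFG3L2 (0.17) and OMA1 (-0.33). For the TGF-beta family and receptor genes they were FURIN (2.36), RET (3.46) and TGFB1 (-1.19). Among the markers the values were those of CD14 (2.45), KRT17 (-1.53) and KRT5 (-1.80). For the receptor gene and its target they were THRB (1.41) and KLF9 (1.32). With 3 libraries in each group, no gap test for single libraries was run; those that stand apart are named in the report.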

How the results depend on the processing

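Of 790 values of the 10 genes over the alternatives, 766 kept their side of the threshold, 17 lost and 7 gained a call, and 0 changed sign with a call on either side; values without a call did change sign, as for CHAC1 with T3 in TRB cells (-0.15 to 0.22); the changed calls stand beside each gene. Runs in which a gene was not tested or had no adjusted p are not among the 790. GDF15 thus had values in 12 alternatives between TRB and EV cells with vehicle, where PSAT1 had values in 15. With only the groups compared, 9 of the 10 genes were tested there, without GDF15. For T3 in EV cells the count of the 10 genes called was 1 with the GC trend removed. With DESeq2 that comparison called 368 genes (248 higher, 120 lower) in place of 660, and with thinned counts 396; leaving out 1 library gave 275 to 669, with 275 and 396 when vehicle replicate 3 or 1 of the EV cells was dropped and 341 when their T3 replicate 2 was. Between TRB and EV cells with vehicle DESeq2 called 3 of the 10 and 1430 genes in all (673 higher, 757 lower) in place of 5 and 2220; it gave GDF15 no adjusted p there. Thinned counts called 2 of the 10 with vehicle and 4 with T3, out of 9 tested, since GDF15 fell below the filter. Of all 13054 genes tested with thinned counts, 1601 were called with vehicle and 3960 with T3. With all counts these were 2220 and 5916 of 14549. The cause of these shifts was not tested beyond the smaller counts that thinning leaves. Of 1040 list counts, 954 stayed within 1.5 times; among those that did not, 10 tRNA synthetases in place of 6 differed in their T3 response with the GC trend removed.

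Replicate numbers in the titles were tried as a block. Whether they mark a pairing is not stated, and correlations around means of 3 libraries cannot settle it. Over 18 pairs of same-numbered libraries the correlation of deviations ran from -0.124 to 0.0835, and 0 pairs were above 0.1. Of the 12 libraries, 6 correlated best with their own number. With the replicate block 3, 0, 5, 7 and 2 of the 10 genes were called for T3 in TRB cells, T3 in EV cells, TRB against EV with vehicle, TRB against EV with T3 and the difference in response, as without it, and 6437, 647, 2195, 5898 and 3493 genes in all.

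Low counts limit GDF15 and ASNS most, with 99 and 255 counts over the 12 libraries.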

Other observations

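Around GDF15 itself, FURIN, a protease that processes TGF-beta family precursors, went from 30 ± 1.94 to 168 ± 5.93 CPM with T3 in TRB cells (log2 fold change 2.48), and RET, the co-receptor that GFRAL needs, from 0.989 ± 0.28 to 14.4 ± 1.2 CPM (3.82; SD, n = 3 throughout). TGFB1 fell from 18.9 ± 0.308 to 7.73 ± 0.241 CPM (-1.28). Of 11 genes of this list tested, 6 rose and 3 fell with T3 in TRB cells, and 2 rose and 1 fell in EV cells. Of all genes tested, 22.4% rose and 21.9% fell with T3 in TRB cells, and 2.84% rose and 1.7% fell in EV cells. Among 12 mitochondrial stress chaperones and proteases, 5 rose and 2 fell with T3 in TRB cells; DNAJA3 (0.30) and AFG3L2 (0.22) rose and OMA1, the protease that cleaves DELE1 to start the mitochondrial branch of the ATF4 response, fell (-0.42). Of these 12 genes, 4 were lower and 0 higher in TRB than in EV cells with vehicle, beside 7.4% and 7.86% of all genes.

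Of 23 markers of the line and of other cell types, 15 could be tested. The basal keratins KRT5 and KRT17 fell with T3 in TRB cells (-2.01 and -1.61). In EV cells KRT5 fell too (-0.21, adjusted p = 0.00526), and KRT17 did not pass (-0.08, adjusted p = 0.374). Of the leukocyte markers, CD14 went from 19.6 ± 2.1 CPM with vehicle to 186 ± 6.47 CPM with T3 in TRB cells (SD, n = 3), while PTPRC and CD3E stayed at or below 0.498 CPM. CD14 also rose with T3 in EV cells, from 30 ± 2.46 to 51.3 ± 1.35 CPM (log2 fold change 0.80, adjusted p = 1.96e-13). The 4 fibroblast markers summed to 19.7 to 21.4 CPM in TRB T3 and 16.4 to 17.9 CPM in TRB vehicle libraries, nearly all of it COL1A1 (20.3 ± 0.745 and 17 ± 0.7 CPM; SD, n = 3), with COL1A2 and DCN at 0 counts. The 3 endothelial markers summed to 5.94 to 6.47 CPM in TRB T3 libraries and 1.71 to 2.13 CPM in TRB vehicle libraries. The part of these genes in the results of the 10 genes was not tested.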
